A study of Mus musculus with 2 samples.

Results

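The genes described here are 34 members of the nuclear receptor superfamily: the retinoic acid receptors (RARs), retinoid X receptors (RXRs), liver X and farnesoid X receptors (LXRs and FXR), the xenobiotic and vitamin D receptors, RORs, HNF4 genes, testicular receptors, COUP transcription factors, oestrogen and progesterone receptors and the NR4A, NR5, NR6 and NR0 genes. They were chosen by function and found by symbol among the 55536 genes of the gene tables, of which 21951 code for protein, and all 34 were present. Their levels were measured by total RNA-seq in heart tissue from 2 B6CASTF1/J males, F1 hybrids that were 25 days old, with 1 library per animal from 300 ng of RNA. The labels give no treatment and no second genotype, tissue or age, so the hearts form 1 group and are named by their replicate numbers, 1 (animal 3) and 2 (animal 4). Both labels carry the same donor identifier, and spike-in RNAs had been added. Each library came from bulk heart tissue, so fewer cells of a type and less RNA per cell cannot be told apart. Reads were assigned to the mm10 assembly, which is of C57BL/6J, so the alleles of the parental strains cannot be told apart. Depth was 38253821 estimated gene counts in replicate 1 and 40655101 in replicate 2.

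Nuclear receptors are transcription factors that bind DNA through a zinc-finger domain and, in many cases, a small lipophilic ligand through a second domain. RXRs are the shared partners of RARs, LXRs, FXR and the xenobiotic and vitamin D receptors, and such pairs bind repeated copies of a short core motif. Without ligand, pairs such as those of the RARs recruit corepressors, and ligand binding exchanges these for coactivators. Retinoid signalling shapes the embryonic heart, and COUP-TFII (Nr2f2) is known as a regulator of atrial identity and of veins and lymphatic vessels. Orphan receptors such as the NR4A proteins have no established physiological ligand and are instead controlled mainly by how much of them is made.

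The starts of the genes on which the levels turn are printed first. Each window holds 250 bases before and 50 bases after a start in the RefSeq promoter table (assembly GRCm38.p6), and 32 of the 34 members had an entry. Rxrg, the receptor with the highest level, is shown at both of its starts because its transcripts differ between them. Rarb is shown for a response element, Rxra as a receptor with a CpG-rich start that was on, Nr0b2 as one that was on with few CpGs, and Hnf4a as a receptor with no counts. Capitals mark the retinoid repeat in Rarb and the letters AAAGGTCA in the downstream Rxrg window.
Rxrg upstream start, chr1:167598112-167598411, forward strand: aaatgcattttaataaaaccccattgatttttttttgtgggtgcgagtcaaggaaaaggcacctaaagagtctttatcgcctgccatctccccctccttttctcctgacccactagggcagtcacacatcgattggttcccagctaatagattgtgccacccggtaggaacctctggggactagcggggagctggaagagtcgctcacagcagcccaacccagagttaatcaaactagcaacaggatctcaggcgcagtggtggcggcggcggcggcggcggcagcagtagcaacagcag
Rxrg downstream start, chr1:167618015-167618314, forward strand: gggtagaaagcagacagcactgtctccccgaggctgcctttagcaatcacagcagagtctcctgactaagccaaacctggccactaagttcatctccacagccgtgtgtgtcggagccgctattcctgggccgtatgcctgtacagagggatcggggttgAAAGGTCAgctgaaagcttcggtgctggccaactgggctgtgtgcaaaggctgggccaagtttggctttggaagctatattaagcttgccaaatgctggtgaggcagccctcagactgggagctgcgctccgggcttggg
Rarb, chr14:16575427-16575726, reverse strand: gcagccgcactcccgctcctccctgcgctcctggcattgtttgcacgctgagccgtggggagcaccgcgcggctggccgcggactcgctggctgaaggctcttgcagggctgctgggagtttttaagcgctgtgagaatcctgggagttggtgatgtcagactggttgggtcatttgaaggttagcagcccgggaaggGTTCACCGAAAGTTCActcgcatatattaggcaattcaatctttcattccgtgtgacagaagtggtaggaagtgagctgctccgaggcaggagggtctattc
Rxra, chr2:27676951-27677250, forward strand: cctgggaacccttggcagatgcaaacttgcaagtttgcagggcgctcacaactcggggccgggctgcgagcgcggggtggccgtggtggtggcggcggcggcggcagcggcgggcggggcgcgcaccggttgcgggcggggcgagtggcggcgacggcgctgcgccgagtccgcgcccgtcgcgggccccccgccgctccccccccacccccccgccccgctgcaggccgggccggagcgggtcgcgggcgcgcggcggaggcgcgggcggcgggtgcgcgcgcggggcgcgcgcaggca
Nr0b2, chr4:133553126-133553425, forward strand: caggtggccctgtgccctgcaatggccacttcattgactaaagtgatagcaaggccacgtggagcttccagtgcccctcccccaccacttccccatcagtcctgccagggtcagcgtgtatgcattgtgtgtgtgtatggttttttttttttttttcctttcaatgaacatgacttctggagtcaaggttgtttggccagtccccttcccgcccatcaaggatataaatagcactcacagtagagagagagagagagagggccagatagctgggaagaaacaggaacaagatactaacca
Hnf4a, chr2:163506607-163506906, forward strand: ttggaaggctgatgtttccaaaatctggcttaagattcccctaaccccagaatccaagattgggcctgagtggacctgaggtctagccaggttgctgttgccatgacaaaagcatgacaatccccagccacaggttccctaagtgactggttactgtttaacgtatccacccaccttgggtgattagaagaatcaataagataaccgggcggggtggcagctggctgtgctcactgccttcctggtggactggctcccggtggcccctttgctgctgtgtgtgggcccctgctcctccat

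A receptor was called on when it reached a TPM (abundance per unit of transcript length, scaled so that all genes of a library share one sum) of 1 in both hearts, absent when it lay below 0.1 TPM in both, and low otherwise. By this rule 15 of the 34 receptors were on, 9 were low and 10 were absent. The share on was 44.1%, against 49.7% of all protein-coding genes and 21.3% of all genes. The share absent was 29.4%, against 34.3% of protein-coding genes. Both shares lie near those of protein-coding genes. The remaining share, that of low receptors, was 26.5%. It was above that of protein-coding genes, since the shares on and absent both lay below theirs. The on receptors averaged from 2.01 to 23.1 TPM with a median of 6.84, against a median of 8.13 TPM over all protein-coding genes that were on, and 7 of the 15 lay above that median. They held 97.2% ± 0.126 (SD, n = 2) of the summed TPM of the 34 genes, which was 152.01 in replicate 1 and 148.2 in replicate 2. In 12 of the 15 the coefficient of variation over the hearts was under 10%.

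**Figure D1:**
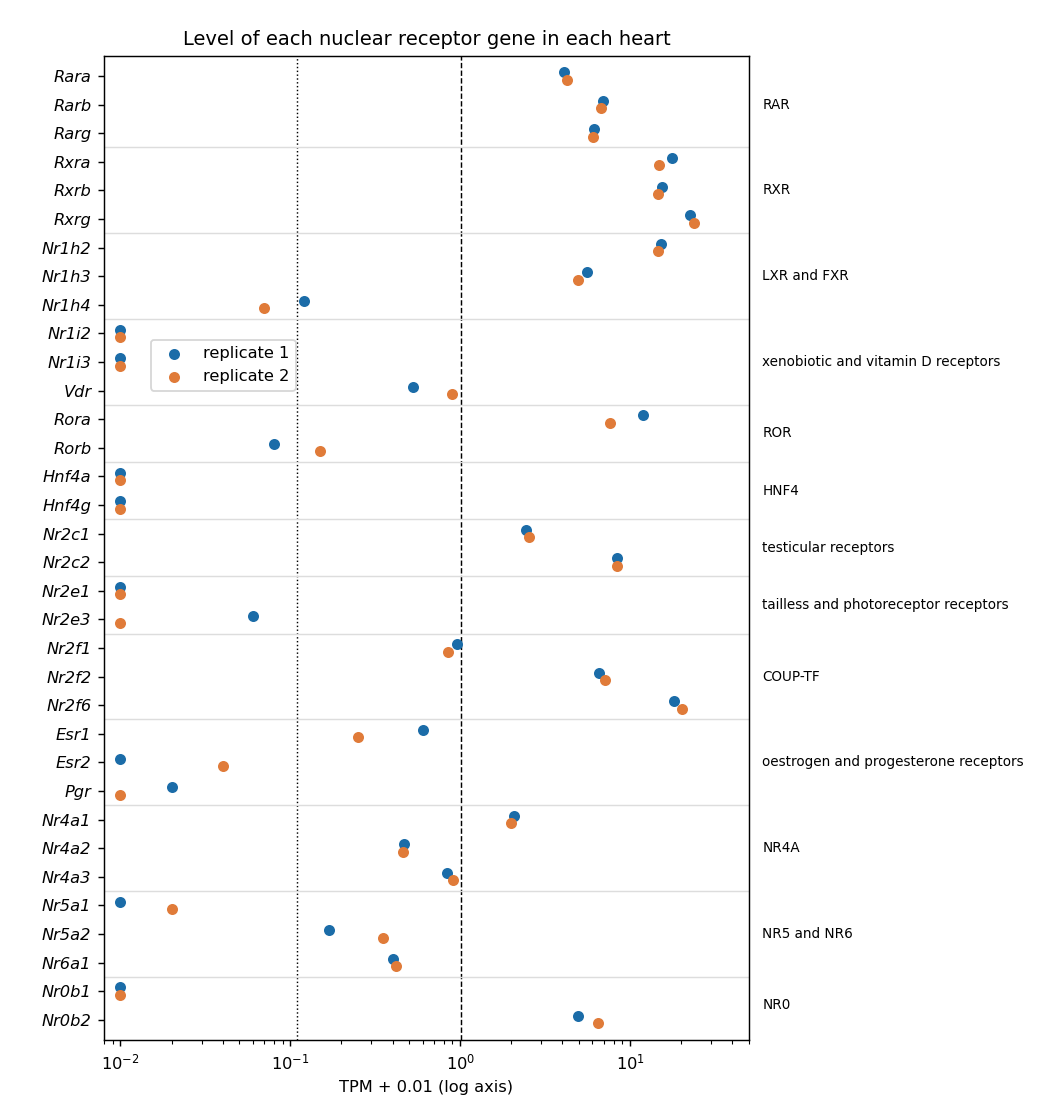
Level of each of the 34 receptor genes in TPM + 0.01 on a log axis, with 1 point per heart (replicate 1 above replicate 2) and families separated by grey lines. The dashed line marks a TPM of 1 and the dotted line a TPM of 0.1. Rxrg has the highest points, at 22.5 and 23.8 TPM in replicates 1 and 2, and Nr1i2, Nr1i3, Hnf4a, Hnf4g, Nr2e1 and Nr0b1 lie at the left edge in both hearts.

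All 3 RXR genes were on, and together they were the most abundant family. Rxrg (RXRγ, ENSMUSG00000015843.10, chromosome 1, 167598384 to 167639623), the form known from skeletal and heart muscle and parts of the nervous system, had 22.46 TPM in replicate 1 and 23.82 TPM in replicate 2, from 1142 and 1298 counts. It was the highest of the 34 genes and ranked 2268 among protein-coding genes. Rxra (RXRα, ENSMUSG00000015846.14, chromosome 2, 27676440 to 27762957), the broadly expressed form that the embryonic heart needs for its ventricular wall, had 17.61 and 14.86 TPM in replicates 1 and 2. Rxrb (RXRβ), also broadly expressed, had 15.38 and 14.50 TPM. Rxrg exceeded Rxra by a log2 ratio of 0.51 ± 0.232 and Rxrb by 0.63 ± 0.119 (SD over 2 hearts, TPM + 0.1). Rxrg held 42.6% ± 3.03 of the family's TPM, Rxra 29.9% ± 2.70 and Rxrb 27.5% ± 0.333. The family summed to 55.45 TPM in replicate 1 and 53.18 in replicate 2. A set of 9 of its partners (the RARs, LXRs, FXR, Nr1i2, Nr1i3 and Vdr) summed to 38.7 and 37.4 TPM. Other partners, among or outside the 34 genes, were not in that sum, so it does not give the level of all partners. Within each family the higher gene was picked by its mean, so the direction of such a ratio is given by that choice. With 2 hearts an exact two-sided sign-flip test cannot go below p = 0.5, so no p is given, and a ratio was called beyond the spread when its sign held in both hearts and its mean exceeded its SD. All 19 ratios of a family's highest gene over its other members met this, in families whose highest gene averaged 0.1 TPM or more. The HNF4 genes and the pair of Nr2e1 and Nr2e3 did not reach that level, so no ratio was taken for them.

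The RARs, which bind retinoic acid, were all on at lower levels. Rarb (RARβ, ENSMUSG00000017491.9, chromosome 14, 16430839 to 16819156) had 6.92 and 6.69 TPM in replicates 1 and 2, Rarg (RARγ) had 6.14 and 6.08, and Rara (RARα) had 4.10 and 4.23. Rarb held 39.8% ± 0.688 of their sum, which was 17.2 TPM in replicate 1 and 17.0 in replicate 2. Rarb exceeded Rara by a log2 ratio of 0.70 ± 0.0651 and Rarg by 0.15 ± 0.0241. The order of Rarb and Rarg turned in the authors' posterior mean estimate of TPM, where Rarg had 9.12 and 8.87 and Rarb 7.18 and 6.99. Rarb shares 1793 exon bases with Top2b on the opposite strand, and the strand setting of the counting is not given in the sources used here, so its level is uncertain to that extent. Top2b had 17.95 and 22.31 TPM, from 3209 and 3569 counts, and Rarb had 628 and 648 counts. All of these were whole numbers, and sharing of reads between the genes was not tested.

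The retinoid list of 16 genes covers supply, synthesis and breakdown of retinoic acid, and 8 of them were on. This lies near the 49.7% of all protein-coding genes that were on. That share is the background for the counts of the other lists below as well. Dhrs3, which returns retinaldehyde to retinol, had 58.0 and 45.2 TPM in replicates 1 and 2. Fabp5, a fatty acid and retinoic acid binding protein, had 24.0 and 29.1, and Rbp7, a retinol-binding protein of endothelium, had 24.8 and 19.4. Cyp26b1, which degrades retinoic acid, had 4.00 TPM in replicate 1 and 8.38 TPM in replicate 2, a log2 ratio of -1.03 for replicate 1 over replicate 2. It was the only gene of the 8 lists to differ by 2-fold or more among those at a mean of 1 CPM (counts scaled by library total). The lowest of the list was Cyp26c1, at 0.02 and 0.03 TPM. Of the retinoic acid synthesising enzymes, named here after their values were seen, Aldh1a1 had 10.7 and 6.87 TPM, Aldh1a2 had 4.00 and 4.63, and Aldh1a3 had 0.31 in both hearts.

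Both LXR genes were on. Nr1h2 (LXRβ), the broadly expressed oxysterol receptor, had 15.29 and 14.55 TPM in replicates 1 and 2, and Nr1h3 (LXRα), best known from liver, fat and macrophages, had 5.59 and 4.93. Nr1h2 exceeded Nr1h3 by a log2 ratio of 1.49 ± 0.0755 and held 74.0% ± 1.04 of their sum. Of 14 LXR targets and oxysterol-synthesis genes, 11 were on, against 49.7% of all protein-coding genes. Apoe, a lipid carrier, was highest at 136.9 and 110.5 TPM, followed by the fatty acid desaturase gene Scd1 at 36.0 and 24.0 and the phosphodiesterase gene Smpdl3a at 21.7 and 18.8. Cyp46a1, an oxysterol-making enzyme of neurons, was lowest at 0.06 and 0.13 TPM.

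The receptors for bile acids, drugs and vitamin D were low or absent. Nr1h4 (FXR), the bile acid receptor, had 0.11 and 0.06 TPM in replicates 1 and 2, from 7 and 4 counts. Nr1i2 (PXR) and Nr1i3 (CAR), the xenobiotic sensors of liver and gut, had 0 counts in both hearts. For Nr1i2 a count of 0, taken as up to 3 counts, allows up to 0.0374 TPM in replicate 1 and 0.0348 in replicate 2. Nr1i3 shares 3304 of its 4414 exon bases with Tomm40l on the opposite strand, and Tomm40l had 28.67 and 36.08 TPM while Nr1i3 was listed at 0. Vdr, the vitamin D receptor, had 0.52 TPM in replicate 1 and 0.88 TPM in replicate 2, from 72 and 64 counts, so its TPM and its counts are ordered differently. Its call depended on the estimate, since it had 1.00 and 1.29 TPM as a posterior mean, which is on, and 0.62 and 2.36 in the second quantification. Its effective length in the gene table was 4271 bases in replicate 1 and 2064 in replicate 2.

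In the lists tied to these receptors, most genes were off as well. These counts depend on the list in which a gene was placed. Cyp27a1 and Cyp7b1, which also act in bile acid synthesis, were placed with the oxysterol genes. Cyp27a1 was on at 6.11 and 4.24 TPM in replicates 1 and 2, and Cyp7b1 had 0.28 and 0.23. None of the 9 genes in the bile acid list was on. The highest, the transporter gene Slc51a, had 0.26 and 0.34 TPM, ahead of the bile acid receptor gene Gpbar1 at 0.06 and 0.00 and the export pump gene Abcb11 at 0.03 and 0.00. Another 5 of the 9, among them Cyp7a1, the rate-limiting enzyme of bile acid synthesis, were listed at 0 in both hearts. None of the 6 genes in the vitamin D list was on. Cyp2r1, which hydroxylates vitamin D, had 0.17 and 0.39 TPM, the activating enzyme gene Cyp27b1 had 0.03 and 0.05, the carrier gene Gc had 0.02 and 0.00, and 3 were listed at 0. Of 8 genes known as xenobiotic-receptor targets, 3 were on and 4 were listed at 0. The 3 were Gstm1, a glutathione transferase gene, at 93.9 and 83.2 TPM, Por, the electron donor of cytochromes P450, at 27.1 and 18.2, and Abcb1a, an efflux pump gene, at 3.31 and 2.90.

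**Figure D2:**
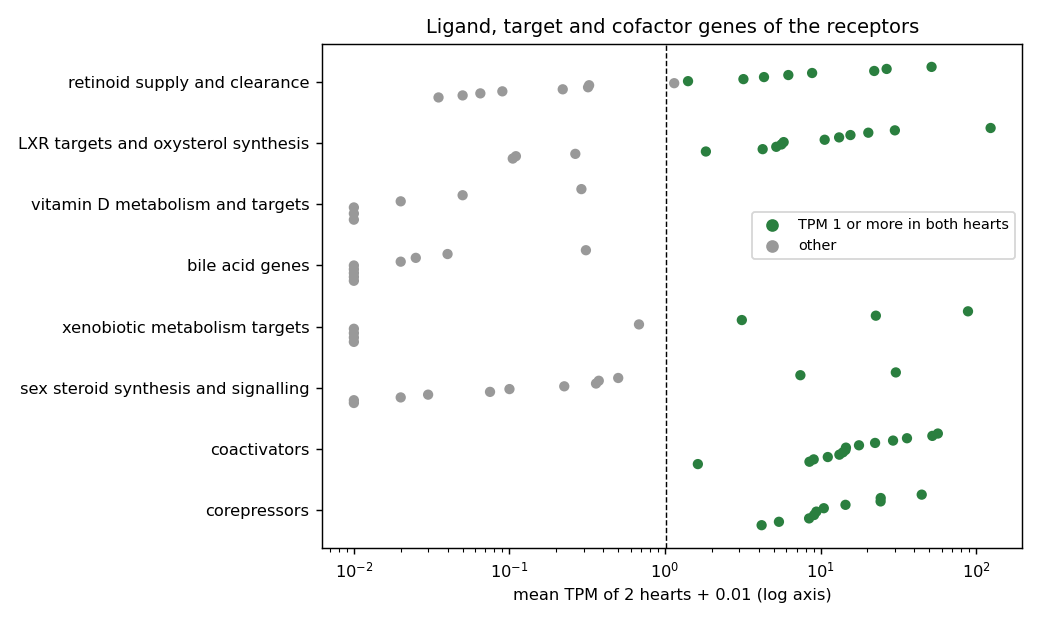
Mean TPM of both hearts plus 0.01, on a log axis, for each gene of 8 lists of ligand, target and cofactor genes, 1 point per gene. Green points reached a TPM of 1 in both hearts. All 14 coactivators and all 10 corepressors lie right of the dashed line at a TPM of 1, and no gene of the bile acid or vitamin D list does.

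In the ROR, HNF4 and testicular families, 3 genes were on, 1 was low and 2 were absent. Rora (RORα, ENSMUSG00000032238.17, chromosome 9, 68653786 to 69388246), which activates clock and lipid genes, had 11.93 TPM in replicate 1 and 7.58 TPM in replicate 2, the widest relative spread among the 15 on receptors, with a coefficient of variation of 31.5%. Rorb (RORβ), a gene of retina and brain, had 0.07 and 0.14 TPM. Hnf4a and Hnf4g, which drive liver, gut and kidney genes, had 0 counts in both hearts. For Hnf4a, 3 counts at its effective length would be 0.0458 TPM in replicate 1 and 0.0426 in replicate 2. The authors' interval for its TPM reached higher, to 0.436 and 0.410, with posterior means of 0.21 and 0.19. Nr2c2 (TR4) had 8.40 and 8.38 TPM and Nr2c1 (TR2) had 2.44 and 2.54. These 2 proteins bind direct repeats as repressors or activators. Nr2c2 shares 4590 of its 14935 exon bases with Mrps25 on the opposite strand, and Mrps25 had 26.88 and 33.23 TPM, from whole counts of 797 and 1009. Nr2c2 was the only receptor here whose counts were not whole numbers, with 1639.83 counts in replicate 1 and 1726.63 in replicate 2. The source of these fractions was not tested. In the other 33, counts lay within 0.005 of a whole number.

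Among the COUP transcription factors, Nr2f6 (EAR2, ENSMUSG00000002393.14, chromosome 8, 71374123 to 71381960) led with 18.10 TPM in replicate 1 and 20.14 TPM in replicate 2, the second highest mean of the 34. Nr2f2 (COUP-TFII) had 6.55 and 7.13 TPM, and Nr2f1 (COUP-TFI), which also acts in atrial and neural development, had 0.95 and 0.84. Nr2f1 thus lay just below the threshold in both hearts, and by posterior mean TPM, at an average of 1.20, it was on. Nr2f6 exceeded Nr2f2 by a log2 ratio of 1.47 ± 0.0231 and held 71.2% ± 0.667 of the family's TPM. In the second quantification Nr2f2 had 12.65 and 13.91 TPM, and the log2 ratio of Nr2f6 over Nr2f2 was 0.67. Nr2f6 shares 1622 of its 2983 exon bases with Ocel1 on the opposite strand, which had 4.22 and 5.11 TPM. Nr2f2 shares 643 exon bases with B130024G19Rik on the opposite strand, at 0.59 and 0.86 TPM. The related Nr2e1, a neural stem cell gene, had 0 counts in both hearts, and Nr2e3, a photoreceptor gene, had 1 and 0 counts.

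Of the sex steroid receptors here, only Esr1 (ERα), the main oestrogen receptor, gave more than 3 counts in a heart. Esr1 had 0.59 TPM in replicate 1 and 0.24 TPM in replicate 2, from 68 and 45 counts. Esr2 (ERβ) had 0 and 3 counts and Pgr, the progesterone receptor, 2 and 1. Of 12 sex steroid genes found, 2 were on. These were Hsd17b4, which also serves peroxisomal fatty acid breakdown, at 29.4 and 31.5 TPM, and Hsd17b12, which also serves fatty acid elongation, at 7.35 and 7.45. Gper1, a membrane receptor for oestrogen, followed at 0.53 and 0.45 TPM. Cyp19a1, the oestrogen-making aromatase, and Hsd3b1 were listed at 0 in both hearts.

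The NR4A genes, which many stimuli induce within a short time, were near the threshold. Nr4a1 (NUR77) had 2.05 and 1.97 TPM in replicates 1 and 2 and was the lowest of the on receptors. Nr4a3 (NOR1) had 0.83 and 0.90 TPM and Nr4a2 (NURR1) had 0.46 and 0.45. Their sum was 3.34 TPM in replicate 1 and 3.32 in replicate 2. Nr4a1 exceeded Nr4a3 by a log2 ratio of 1.13 ± 0.113 and Nr4a2 by 1.93 ± 0.0203. By posterior mean TPM, Nr4a2 averaged 0.90, against 0.455 here, and the log2 ratio of Nr4a1 over Nr4a2 was 1.17. Nr4a3 averaged 1.045 by that estimate and 1.12 in the second quantification, and was on in both.

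The NR5 and NR6 genes were low or absent. Nr5a1 (SF-1), the regulator of steroid-making glands, had 0 and 1 counts, and the adrenal cortex genes Cyp11b1, Cyp11b2 and Cyp21a1 were listed at 0 in both hearts. Nr5a2 (LRH-1), a liver, gut and ovary receptor, had 0.16 and 0.34 TPM from 18 and 36 counts. Nr6a1 (GCNF), a repressor known from germ and stem cells, had 0.39 and 0.41 TPM. The averages of Nr5a2 and Nr6a1, 0.25 and 0.40 TPM, were 0.44 and 0.975 by posterior mean and 0.442 and 0.640 in the second quantification.

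The NR0 receptors lack a DNA-binding domain and repress other receptors. Nr0b1 (DAX-1), a gene of adrenal and gonad, had 0 counts in both hearts, which allows up to 0.0537 TPM in replicate 1 and 0.0499 in replicate 2. Nr0b2 (SHP, ENSMUSG00000037583.2, chromosome 4, 133553376 to 133556536), which in liver is induced by FXR, was on at 4.91 TPM in replicate 1 and 6.47 TPM in replicate 2, from 166 and 235 counts. Its counts were whole numbers and no annotated gene overlaps it. The liver markers Alb, Fgb and Serpina1a were listed at 0 in both hearts, while Apoa1 had 0.12 and 0.03 TPM and Ttr 0.25 and 0.16.

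Ordered by mean TPM, the 15 on receptors ran Rxrg, Nr2f6, Rxra, Rxrb, Nr1h2, Rora, Nr2c2, Nr2f2, Rarb, Rarg, Nr0b2, Nr1h3, Rara, Nr2c1 and Nr4a1. In 8 of the 14 neighbouring pairs the ratio was beyond the spread of the hearts. The pairs were set by sorting these same means, and the order is that of the first quantification. In the second, Nr2f2 had 12.65 and 13.91 TPM and Nr2c2 had 11.44 and 11.61, which reverses a pair called beyond the spread. The neighbours that did not differ beyond it were Nr2f6 and Rxra, Rxrb and Nr1h2, Rora and Nr2c2, Nr2f2 and Rarb, Rarg and Nr0b2, and Nr0b2 and Nr1h3.

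The cofactors through which these receptors act were on without exception in the lists examined. All 14 coactivators were on, against 49.7% of all protein-coding genes, with a median of 14.5 TPM. Ncoa4, which also directs ferritin to breakdown, was highest at 68.3 and 45.0 TPM in replicates 1 and 2, ahead of Pnrc1 at 59.0 and 45.4 and the arginine methyltransferase gene Prmt1 at 34.2 and 37.5. Ncoa7 was lowest at 1.35 and 1.88 TPM. All 10 corepressors were on, with a median of 9.925 TPM. Ncor1 was highest at 44.3 and 45.0 TPM, its complex partner Tbl1xr1 had 23.9 and 24.7, and the ligand-dependent corepressor Lcor was lowest at 4.09 and 4.24.

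Several receptor genes make proteins of different length from different starts, and transcript tables give each transcript's share of its gene. The first quantification was made from an alignment to the transcriptome and the second directly from reads. With transcripts of identical coding sequence grouped, a grouping chosen after seeing the data, the same coding form led in both hearts for 15 of 15 on receptors in the first and 13 in the second, and the second named the same leader for 12. Counted as single transcripts, the leader was the same in both hearts for 13 of 15, the second quantification named the same leader for 8, and the leader held over 50% in both hearts in 8. The leading form held over 50% in both hearts in 12 receptors by the first quantification and in 10 by the second.

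Rxrg was made mainly as its shorter form. Rxrg-202, which starts in the downstream window printed above and encodes 340 residues, held 94.96% of Rxrg transcript TPM in replicate 1 and 96.0% in replicate 2, and 71.3% and 69.3% in the second quantification. The form of 463 residues from the upstream start held the remaining 5.04% and 4.00%, and 28.7% and 30.7% in the second. The 340-residue form therefore led in both, with shares that differ between the quantifications by far more than between the hearts. Rarg-202, of 447 residues, held 71.8% ± 2.23, and Rarg-201, of 458 residues, which starts farther upstream, 18.7% ± 3.94. In the second quantification they held 70.3% and 17.0%. Rarb-201, of 448 residues, whose start lies in the printed window, held 85.2% ± 2.62, but 46.7% in the second quantification, where Rarb-207, of 402 residues, held 30.5%. The Rara form of 462 residues held 62.7% ± 3.06 and that of 459 residues 32.6% ± 3.62.

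Rora was made from a pair of distant starts at similar shares. Rora-202, of 467 residues, starts at position 69289682 and held 49.9% in replicate 1 and 46.5% in replicate 2. Rora-201, of 523 residues, starts at position 68653786 and held 40.6% and 45.5%. In the second quantification Rora-202 led in replicate 1 and Rora-201 in replicate 2. Nr2f2 also changed leader with the quantification. The form of 414 residues held 49.7% ± 4.57 in the first and 24.4% in the second, and that of 170 residues held 23.9% ± 7.54 and 39.7%. Rxrb had no form above 50%, and its 410-residue form led in the first quantification with 37.0% ± 6.44. The 467-residue form of Rxra held 84.6% ± 3.74 and the 390-residue form of Nr2f6 held 83.1% ± 1.44. The 601-residue form of Nr4a1 held 91.91% in replicate 1 and 98.04% in replicate 2.

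**Figure D3:**
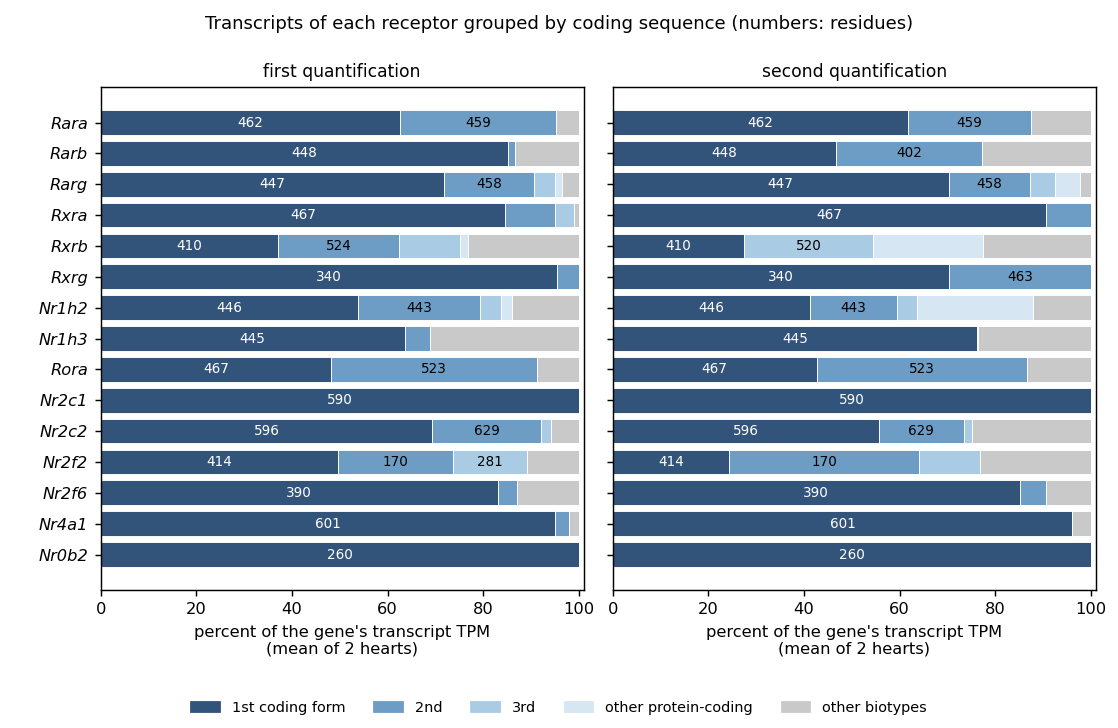
Share of each on receptor's transcript TPM (mean of 2 hearts, in percent) held by its coding forms, in the first (left) and second (right) quantification. Numbers in the bars are coding lengths in residues, and colours give the rank of a form in the first quantification. Grey is the sum of transcripts of other biotypes than protein coding, such as processed transcripts, retained introns and nonsense-mediated decay. The 340-residue form of Rxrg holds 95.5% on the left and 70.3% on the right.

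In windows at the first listed start, the ratio of observed to expected CpG had a median of 0.696 in the 15 on receptors, 0.713 in the 9 low ones and 0.331 in the 8 absent ones with an entry. It exceeded 0.6 in 10 of 15, 5 of 9 and 1 of 8. Over protein-coding genes the median was 0.781 in the 8552 that were on and had a window in the table, and 0.192 in the 5663 that were absent and had one, and 75.0% and 11.8% exceeded 0.6. The order of on over absent was the same in the receptors as in genes at large, and no test was made. Rxra, with 83.0% GC and a ratio of 1.08, stood at one end of the on receptors. Nr0b2 with 0.162 and Nr2f2 with 0.109 stood at the other, as low as Hnf4a with 0.183. The first listed window held the start of the leading single transcript in 8 of the 15 on receptors, and not in Rarg, Rxrb, Rxrg, Rora, Nr2c1, Nr2c2 and Nr2f2. For 10 of the 15 some listed window held that start, and by this choice, made after seeing the data, the ratio had a median of 0.652 and exceeded 0.6 in 6 of 10. Rxrg, at 0.602 in the upstream window, had 0.373 in the downstream one.

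**Figure D4:**
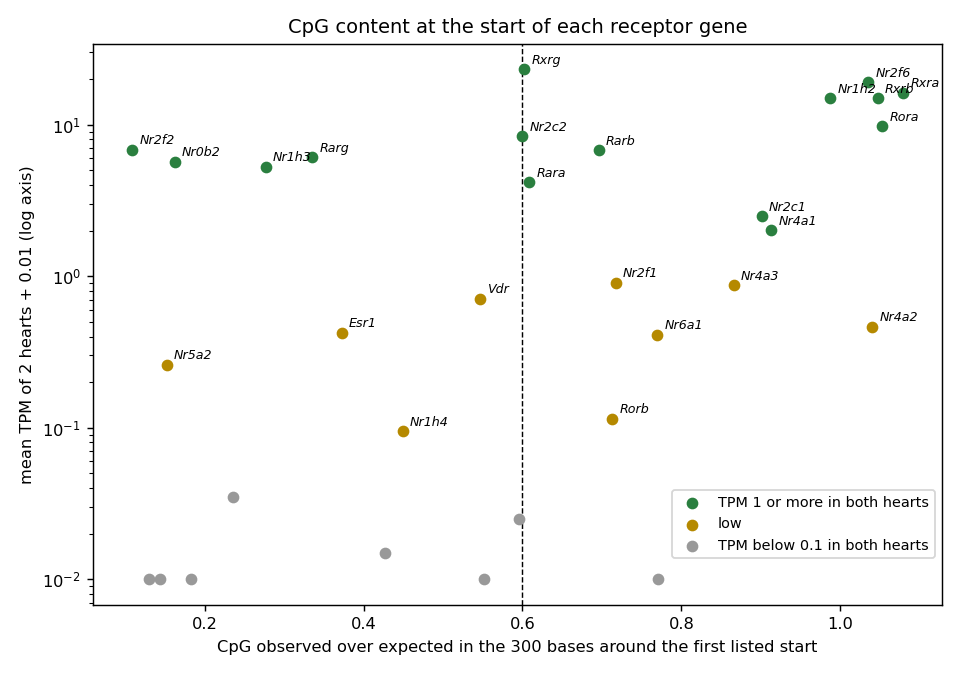
Ratio of observed to expected CpG in the 300 bases around the first listed start against mean TPM of 2 hearts plus 0.01 (log axis), for the 32 receptors with an entry. Green points were on, yellow low and grey absent, and the dashed line marks a ratio of 0.6. Of the grey points 1 of 8 lies right of the line, against 10 of 15 green points.

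Motifs were searched on both strands in all 32851 windows of the table, alternative starts included, of which 46 belong to the receptors. The letters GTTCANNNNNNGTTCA, the spacing of the retinoic acid response element long known in the Rarb promoter, occurred in 25 windows, or 0.0761%. Rarb was the only receptor of the 34 genes among them, with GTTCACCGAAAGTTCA beginning at position -52 when the start is position 0. The core motif AGGTCA occurred in 16.3% of all windows and in 8 of the 46, among them the first windows of Nr5a2, Nr1h4, Rarg and Nr0b1. AAAGGTCA, the letters bound by NR4A monomers, which contain that core, occurred in 1.51% of windows and in no first window of a receptor. At second listed starts it was present in Rxra and in Rxrg, where it begins at position -90 of the downstream window. Direct repeats of AGGTCA spaced by 1, 4 or 5 bases occurred in 13, 5 and 3 of all windows and in none of the receptors'. A match is a description of letters and not of binding.

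Between the 2 hearts, 21 receptors reached a mean of 1 CPM and could be compared on TMM-scaled counts (edgeR), as log2 of replicate 1 over replicate 2. None of the 21 differed by 2-fold or more in counts, with TMM, DESeq2 size factors, spike-in totals or total counts. In TPM, Esr1 was more than 2-fold apart, at 0.59 in replicate 1 and 0.24 in replicate 2. Its effective length was 3505 bases in replicate 1 and 5255 in replicate 2. Over all 12910 genes past that filter, those differing by at least 2-fold were 117 (0.906%) with the higher value in replicate 1 and 40 (0.31%) with the higher value in replicate 2. With spike-in totals these were 169 and 28. Spike-in scaling moves the median log2 ratio of all genes to 0.13, against -0.01 with TMM. The median absolute log2 ratio was 0.142 in the 21 receptors and 0.120 in all genes. With 1 library per animal these ratios have no replicate check, and the intervals below are exact binomial 95% intervals, which cover counting error only since reads are not independent molecules.

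The interval lay above 0 in 5 receptors, below 0 in 2 and spanned 0 in 14. Such intervals were not computed for all genes, so these counts show nothing particular to the receptors. Esr1 had the largest ratio, 0.73 (0.17 to 1.31), on 68 and 45 counts. Rora, with 2225 counts in replicate 1 and 1642 in replicate 2, had the next, 0.58 (0.48 to 0.67). Nr1h3 had 0.30 (0.04 to 0.56), Rxra 0.26 (0.18 to 0.34) and Rxrb 0.16 (0.04 to 0.29). Nr0b2 was lower in replicate 1, at -0.36 (-0.66 to -0.07). Nr2f6 was at -0.14 (-0.26 to -0.02), and at 0.00 with spike-in scaling. Spike-in or total-count scaling also turned the sign of Rarg, Rxrg, Nr2f1, Nr4a1 and Nr6a1, all with intervals that span 0. Marker genes of other cells moved between the same hearts. The 5 adipocyte markers summed to 231.0 TPM in replicate 1 and 33.3 in replicate 2, and 4 of the 5 were 2-fold or more higher in replicate 1, with Cfd highest at 174.5 and 22.1 TPM and Lep lowest at 0.17 and 0.11. The 4 erythroid markers summed to 31229 and 15870.5 TPM. The part of these cells in the ratios of Nr1h3, Esr1, Rora, Rxra, Rxrb or Nr0b2 was not tested.

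**Figure D5:**
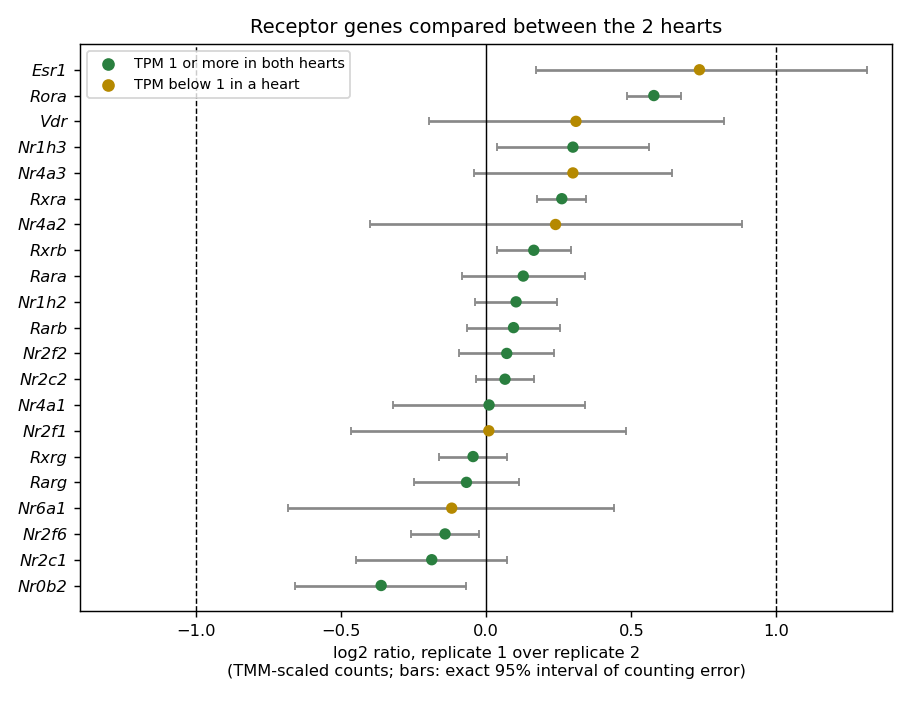
Log2 ratio of replicate 1 over replicate 2 on TMM-scaled counts for the 21 receptors at a mean of 1 CPM or more, with exact 95% intervals of counting error. Green points are receptors on in both hearts, yellow points low ones, and dashed lines mark a 2-fold difference. No point passes a dashed line, and the interval of Rora, 0.48 to 0.67, lies farthest from 0.

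The tissue label was checked against marker genes. All 6 heart muscle markers were on, with a median of 4261 TPM, Myh6 highest at 8807 and 8307 TPM in replicates 1 and 2 and Ryr2 lowest at 353.4 and 335.0. All markers of atrial muscle, fibroblasts, blood and lymphatic endothelium, smooth muscle and pericytes, macrophages and epicardium were on too, with list medians from 6.35 to 341.7 TPM. No marker of liver, neurons or adrenal cortex was on.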

How the data were processed

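Total RNA-seq of 2 hearts of 1 group was analysed. Per the files the authors deposited, reads were quantified on mm10 with GENCODE M21. The gene tables and first transcript tables came from a transcriptome alignment, and the second transcript tables directly from reads. For aligner, quantifier and strand setting, the sources used here give no name. The authors deposited estimated counts, which need not be whole and were rounded here for ratios, and TPM in each table. The authors deposited posterior mean TPM in the gene tables too, and each transcript's percent of its gene in the first transcript tables.

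Receptors were matched by symbol and gene identifier. Library sizes exclude the spike-ins, which took 0.505% of counts in replicate 1 and 0.577% in replicate 2. Counts of 0 were taken to allow 3 counts, or 0.0784 and 0.0738 CPM. Ratios between hearts used TMM factors (edgeR 4.0.16, R 4.3.3) on genes whose mean reached 1 CPM, with DESeq2 1.42.0 size factors, spike-in totals and total counts as alternatives. Family ratios used TPM + 0.1, which understates ratios over genes near 0. The 2-fold step was tested on simulated data. It was passed by 36% of 50 genes changed 2-fold, 95.9% of 49 changed 3-fold and 0.102% of 12733 unchanged genes. The simulation gave every gene the same added spread, drawn independently, so these shares are not error rates for the real hearts. Ratios within a heart share 1 library. Tables, intervals and figures were made in Python 3.11.15 with scipy 1.17.1, pandas 2.3.3, matplotlib 3.10.9 and numpy 2.4.6. Promoter windows came from RefSeq (GRCm38.p6).

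The receptors, lists and tests were chosen with earlier results of these data known. All 34 receptors were named, and of each pathway list the 3 highest genes, the lowest and any 2-fold apart between the hearts, apart from 1 gene whose value is not reported here. Of marker lists the highest and lowest were to be named, and this was done for those beside a result. Sts was left out of the sex steroid list, which then held 12 genes. Nothing says that the 2 animals came from separate litters, so the spread is that between these samples.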

Additional observations from a re-analysis of the deposited data

How the results depend on the processing

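The number of receptors on was 15, and 18 by posterior mean TPM, which added Vdr, Nr2f1 and Nr4a3. It was 16 by the second quantification, 21 at 1 CPM, and 18 and 14 at thresholds of 0.5 and 2 TPM. Without replicate 1 or 2 it was 15. The number absent fell to 6 by posterior mean TPM, against 10, since Nr1i3, Hnf4a, Nr2e1 and Nr2e3, with 0 or 1 counts, were given 0.1 TPM or more in a heart there. It was 9 by a count below 3 and 11 without either replicate. With no filter on low counts and 1 count added, 2 receptors were 2-fold apart, Nr2e3 at a log2 ratio of 1.14 and Esr2 at -1.86, both on 0 to 3 counts. Of 19 family ratios, all kept their direction under each alternative apart from Rarb over Rarg, which was -0.34 by posterior mean TPM; the cause was not tested. TPM moved by more than the SD of the hearts in 23 of 34 receptors by posterior mean and in 20 by the second quantification, which lay above the first in 15 of 15 on receptors, by 1.06 to 1.94 times. Pathway genes on numbered 48, and 45 to 50 under the alternatives. Receptors under about 100 counts, such as Esr1, Vdr and Nr5a2, had wide intervals of counting error. The effective lengths of Esr1 and Vdr also differed between the hearts, and the part of this in their TPM was not tested. No paired analysis was possible because the hearts form 1 group.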

Other observations

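Part of the RNA of several on receptors was assigned to transcripts that the annotation does not class as protein coding. Its other classes here are processed transcripts, retained introns and targets of nonsense-mediated decay. In Nr1h3 this part was 26.1% in replicate 1 and 36.1% in replicate 2, and in Rxrb 21.3% and 25.0%. In the second quantification it was 17.6% and 29.6% in Nr1h3 and 21.995% and 23.298% in Rxrb. Nr2c2 had 5.71% and 6.11% in the first quantification and a mean of 24.8% in the second. Total RNA holds unspliced RNA as well as messenger RNA, and its part in these shares was not tested.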
